A study of Mus musculus with 6 samples.

Results

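The transcripts described here are those of 10 genes of the YAP and TEAD axis: Ctgf (also Ccn2), Cyr61 (also Ccn1), Ankrd1, Crim1, Arhgef17, Amotl2, Lats2, Ajuba, Yap1 and Tead1. They were chosen by name, and every non-control probe whose transcript accession belongs to one of them was kept. This gave 14 probes of the 56605 on the array, and 10 of the 23462 genes that have a symbol. Lats2 and Tead1 had 3 probes each and the other 8 genes 1 each.

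YAP and its relative TAZ are transcriptional coactivators that carry no DNA-binding domain of their own and reach DNA by binding TEAD factors. The Hippo kinase cascade, in which the MST kinases activate the LATS kinases, phosphorylates YAP and TAZ and keeps them out of the nucleus. When that phosphorylation is low, at low cell density or on a stiff matrix, YAP and TEAD switch on secreted matrix proteins such as CTGF and CYR61 and also the pathway's own inhibitors LATS2 and AMOTL2, which makes a feedback loop.

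The cells were TM4, 1 established male mouse line of testicular somatic origin that serves as a model of Sertoli cells. Untreated TM4 cells (0 µM) were compared with TM4 cells exposed for 24 h to 10 µM 4-nitrophenol (PNP), a component of diesel exhaust. Each group held 3 samples, each on 1 single-colour array, on 3 slides in all. Nothing in the labels says whether the samples were grown as separate cultures, and the spread that enters each p-value, that between these samples, may be technical. In such bulk RNA, fewer cells of a type and less RNA per cell cannot be told apart.

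Untreated replicates 1 and 2 shared slide 1, PNP replicates 2 and 3 shared slide 3, and slide 2 carried one sample of each group, untreated replicate 3 with PNP replicate 1. On each slide 1 array lay at the place that the scan names call 2_3 and 1 at 2_4. At position 2_3 were PNP replicate 2 with untreated replicates 1 and 3, and at position 2_4 untreated replicate 2 with PNP replicates 1 and 3. No spot was saturated, and the share of probes well above background ran from 47.8% to 57.9% per array. Of 22 Sertoli cell markers, 16 were measurable, among them Wt1, Gata4, Sox9 and the androgen-regulated Rhox5. Of the 16, 7 differences between treated and untreated cells were above and 9 below 0, with a median of -0.19, and 0 passed. Wt1 had -0.27, Gata4 -0.48, Sox9 -0.81 and Rhox5 -0.44, and the highest of the 16 was Vim with 0.36. The smallest adjusted p in limma was 0.303, for Sox9. The log2 of their summed signal was 5.90 to 6.17 in untreated and 6.00 to 6.44 in treated cells. Most of it came from Vim (5.48 to 6.23), a marker that many other cell types share. The defining markers Amh, Fshr and Cldn11 were well above background on 0 of the 6 arrays. Of the 8 Leydig cell markers 7 were on the array, and 0 passed the filter. In the other lists, 4 of 10 germ cell, 5 of 6 peritubular myoid cell, 3 of 6 macrophage and 1 of 5 endothelial cell markers passed it. By the same sum the myoid markers had 6.31 to 6.98 in untreated and 6.41 to 6.93 in treated cells. Most of it came from Tagln (6.02 to 6.79), which is also in the list of other YAP and TAZ target genes used below.

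TEAD factors bind the letters GGAATG, which read CATTCC on the other strand. Promoter windows of 300 bases, from 250 bases before to 50 bases after an annotated transcription start, were taken from RefSeq (GRCm38.p6) and searched on both strands. They were available for 7 of the 10 genes and not for Ctgf, Tead1 and Arhgef17. All 7 held the motif, in 7 of their 8 windows, against 14.7% of all 32851 windows of 27025 genes. The genes were chosen by name as genes of the YAP and TEAD axis, so these shares carry no test. A match is a description of the letters and not a bound site. The 250 bases before the start are printed for Cyr61, Ankrd1, Amotl2 and Ajuba. Cyr61 is the textbook YAP target, and Ajuba has a pair of matches. Ankrd1 and Amotl2 are the genes whose brightest probe separated the arrays by position. The motif is in capitals and the sequence runs 5′ to 3′ in the direction of the gene.

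The Cyr61 window lies on the minus strand at chr3:145649986-145650235, that of Ankrd1 on the minus strand at chr19:36119845-36120094, that of Amotl2 on the plus strand at chr9:102717554-102717803 and that of Ajuba on the minus strand at chr14:54577662-54577911.
Cyr61: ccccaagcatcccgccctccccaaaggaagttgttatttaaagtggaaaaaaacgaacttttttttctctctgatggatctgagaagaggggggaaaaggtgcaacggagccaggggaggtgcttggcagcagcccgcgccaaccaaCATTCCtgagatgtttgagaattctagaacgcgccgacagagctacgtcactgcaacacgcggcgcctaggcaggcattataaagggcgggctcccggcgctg
Ankrd1: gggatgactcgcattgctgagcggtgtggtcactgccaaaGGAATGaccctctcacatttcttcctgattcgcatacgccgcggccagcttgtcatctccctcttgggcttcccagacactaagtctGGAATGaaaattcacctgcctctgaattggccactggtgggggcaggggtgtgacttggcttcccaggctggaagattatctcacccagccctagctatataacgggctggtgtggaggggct
Amotl2: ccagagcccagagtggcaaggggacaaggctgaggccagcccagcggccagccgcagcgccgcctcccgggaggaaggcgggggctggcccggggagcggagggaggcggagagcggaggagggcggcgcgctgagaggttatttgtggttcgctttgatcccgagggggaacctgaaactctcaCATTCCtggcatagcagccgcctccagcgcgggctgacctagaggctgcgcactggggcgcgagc
Ajuba: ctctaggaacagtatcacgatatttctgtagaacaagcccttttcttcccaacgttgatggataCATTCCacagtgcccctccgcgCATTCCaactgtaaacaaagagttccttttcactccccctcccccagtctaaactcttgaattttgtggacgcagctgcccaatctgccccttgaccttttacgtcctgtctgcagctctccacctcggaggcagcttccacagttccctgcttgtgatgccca

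In Cyr61 the match begins 103 bases before the start and in Amotl2 65 bases before it, both on the other strand. Ankrd1 has matches 210 and 123 bases before its start on the strand of the gene, and Ajuba has them 186 and 164 bases before its start on the other strand. In all windows, 1.36% held 2 or more matches. Yap1 has a match 141 bases before its start and Crim1 one 79 bases before, both on the strand of the gene. The first annotated start of Lats2 has a match that begins 4 bases after it, and the window of its second start has none.

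**Figure D1:**
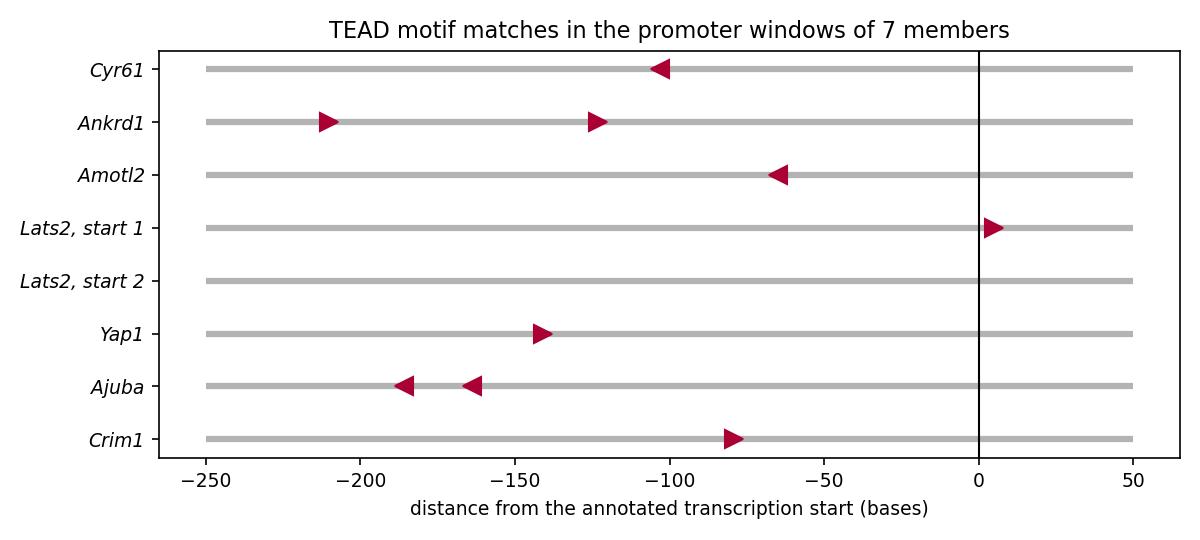
Matches to the TEAD motif in the promoter windows of 7 genes; the horizontal axis is the distance in bases from the annotated transcription start, the grey bar is the window searched, and a triangle pointing right marks a match on the strand of the gene and one pointing left a match on the other strand. Matches lie before the start in 6 genes, at 65 to 210 bases, and just after it in Lats2.

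The comparison of treated with untreated cells asked whether these transcripts differed between the groups. Slide 1 held untreated samples alone and slide 3 treated samples alone, so on those arrays treatment and slide cannot be told apart. The same holds for every difference between the groups given below. None of the 10 genes changed past the threshold in limma (adjusted p from 0.615 to 0.967), and the groups overlapped for every one of them. Of the 10 differences, 2 were above 0 and 8 below, with a median of -0.12 on the log2 scale, beside a median of -0.04 over all 21479 genes and unnamed transcripts tested. By the same test 0% of all units were called. At an unadjusted p under 0.05 there were 0 of the 10 genes, against 9.94% of all units, and groups that did not overlap occurred in 0 of the 10, against 15.4%. Values below are log2 of the processed signal minus the array's 75th percentile, so that 0 is the brightness below which 75% of the probes lie. Since probes differ in how they hybridise, a level of one probe is not set against that of another.

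Ctgf and Cyr61 encode secreted matricellular proteins and are the most used readouts of YAP and TEAD activity. Ctgf read 5.52, 5.21 and 5.32 in untreated replicates 1, 2 and 3, and 5.05, 5.53 and 5.35 in PNP replicates 1, 2 and 3. The highest and the lowest of the 6 values were both treated samples, and the difference of -0.04 ± 0.21 (SE) had a 95% interval from -0.53 to 0.45. Cyr61 read 4.29, 4.27 and 4.10 without and 3.96, 4.37 and 4.77 with the compound. Treated cells again held both extremes: their SD was 0.40, against 0.10 in the untreated cells, and the difference was 0.15 ± 0.24 (SE, n = 3 per group). Without PNP replicate 3, the sample with the highest value, the Cyr61 difference was -0.05.

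Ankrd1, a cardiac ankyrin repeat protein and nuclear cofactor, is another common YAP target. It read 3.73, 2.96 and 4.06 in untreated cells and 3.53, 3.72 and 2.77 in treated cells. One sample of each group was well below the rest, untreated replicate 2 and PNP replicate 3, and the difference was -0.24 ± 0.35 (SE). With array position as a block it was 0.0086, and without PNP replicate 3 it was 0.042. Crim1, a transmembrane protein that binds bone morphogenetic proteins, read 2.56, 2.42 and 2.67 without and 3.26, 2.60 and 2.91 with 4-nitrophenol. In the fit of all 6 arrays it had the largest difference of the 10 genes, 0.37 ± 0.23 (SE) or 1.30-fold, with an interval from -0.15 to 0.90 (limma, adjusted p = 0.615). PNP replicate 2 lay below untreated replicate 3, so the groups overlapped. The Crim1 difference was 0.20 without PNP replicate 1 and 0.54 without PNP replicate 2, and it was -0.01 within position 2_3 and 0.66 within position 2_4. Arhgef17, a guanine nucleotide exchange factor, read 3.52, 3.63 and 3.04 without and 3.41, 3.07 and 3.34 with the compound. All 3 treated values lay inside the untreated range, and the difference was -0.12 ± 0.23 (SE).

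Amotl2 and Lats2 are targets of YAP that also restrain it, Amotl2 as a junctional protein that binds YAP and Lats2 as the kinase that phosphorylates it. Amotl2 read 4.61, 5.09 and 4.36 in untreated and 4.62, 4.22 and 4.91 in treated cells. The groups overlapped, with both the highest and the second lowest value in untreated cells, and the difference was -0.10 ± 0.27 (SE). Its sign turned when 1 sample was left out: it was 0.10 without untreated replicate 2 and 0.08 without PNP replicate 2.

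The 3 Lats2 probes did not share a sign. The brightest read 2.13, 2.23 and 2.04 without and 2.24, 1.78 and 1.94 with 4-nitrophenol, with PNP replicates 2 and 3 below every untreated value and PNP replicate 1 level with the highest of them. A second probe of the same accession (NM_015771) read 0.73, 1.13 and 1.09 against 1.51, 0.93 and 1.64, and the last, of NM_153382, read -0.13, 0.45 and -0.29 against 0.42, -0.12 and 0.70. Their differences were -0.15 ± 0.21, 0.38 ± 0.25 and 0.32 ± 0.29 (SE). All 3 intervals include 0, and over all probes tested 0 of the 14 member probes was called, as was 0% of the 28208 probes (limma, adjusted p from 0.626 to 0.965 for the 14). The mean over the 3 probes was 0.18, so even the sign of the Lats2 difference depends on the probe.

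Ajuba, a LIM domain scaffold that binds and holds back the LATS kinases, read 1.69, 1.89 and 1.34 in untreated and 1.52, 1.07 and 1.69 in treated cells. The lowest value was PNP replicate 2 and the highest untreated replicate 2. The difference was -0.21 ± 0.25 (SE), and with array position as a block it was -0.37 ± 0.19 (limma, adjusted p = 0.413), the smallest adjusted p among the 10 genes in that fit.

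Yap1, the coactivator itself, had the widest spread of the set. Its probe read -0.24, -0.77 and 0.90 in untreated replicates 1, 2 and 3, and 0.72, -0.58 and -1.09 in PNP replicates 1, 2 and 3. One sample of each group was high, and these are the 2 arrays of slide 2. The treatment difference was -0.28 ± 0.53 (SE) with an interval from -1.49 to 0.93, the widest of the 10 genes. It was -0.90 within position 2_3 and 0.59 within position 2_4. Tead1, the DNA-binding partner, was the steadiest. Its brightest probe read 3.71, 3.50 and 3.47 without and 3.39, 3.52 and 3.41 with the compound, a difference of -0.12 ± 0.19 (SE) with an interval from -0.56 to 0.31. Its other probes gave 0.09 ± 0.19 and 0.14 ± 0.22.

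**Figure D2:**
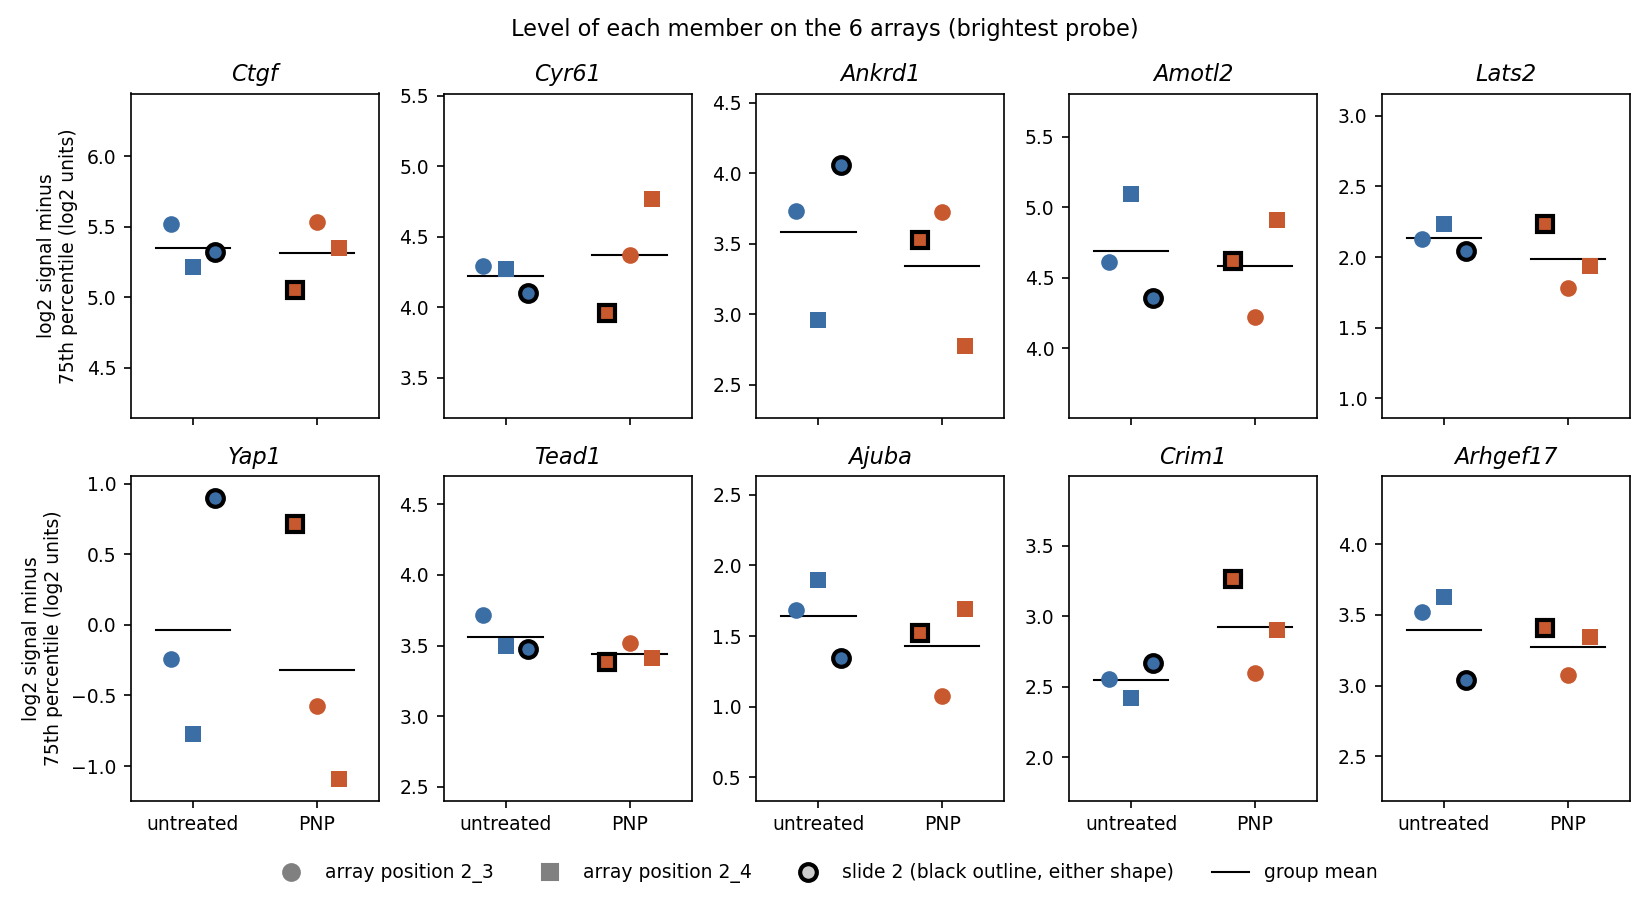
Level of the brightest probe of each of the 10 genes on the 6 arrays, as log2 signal minus the array's 75th percentile; every panel spans the same number of log2 units, circles are position 2_3, squares position 2_4, black outlines slide 2, and lines the group means. The groups overlap in every panel; the Yap1 arrays of slide 2, at 0.90 and 0.72, stand above the other 4.

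**Figure D3:**
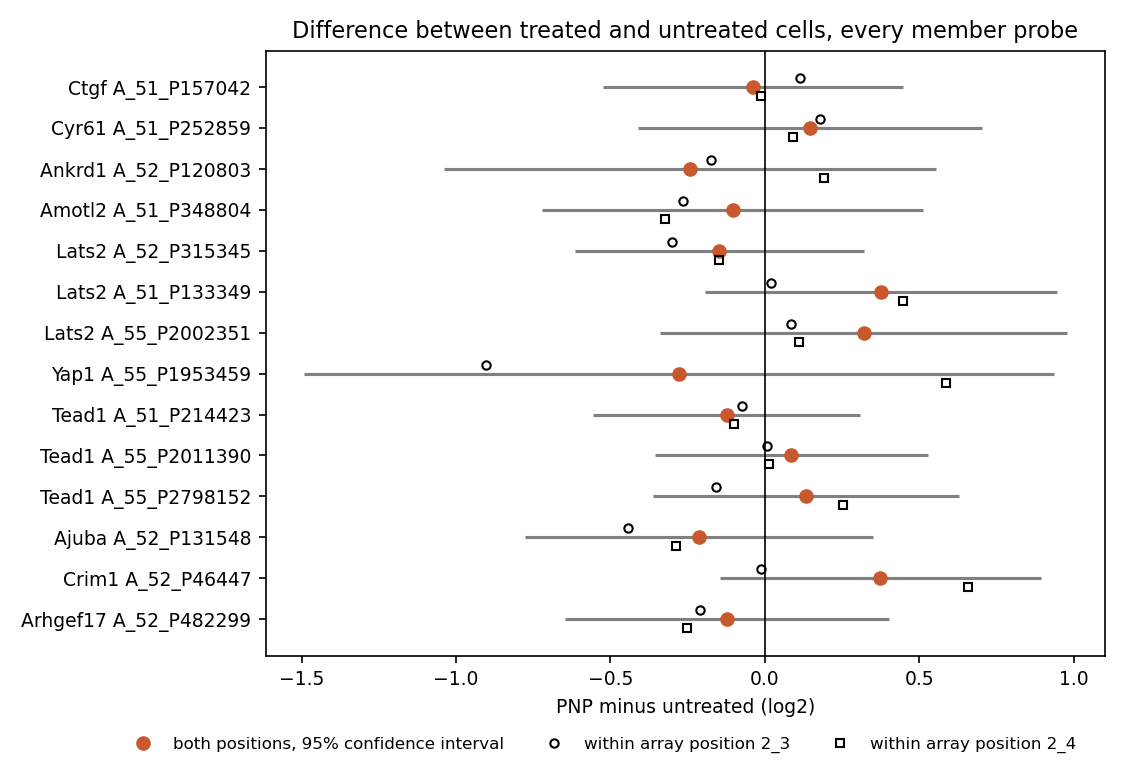
Difference between treated and untreated cells in log2 units for each of the 14 probes: filled circles with 95% confidence intervals for all 6 arrays, open circles within position 2_3 and open squares within position 2_4. Every interval includes 0, and the probes of Lats2 lie on both sides of it.

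The SD over all 6 arrays differed widely between these genes. It was 0.81 for Yap1, higher than for 96.2% of the units tested, 0.50 for Ankrd1, higher than for 79.2%, and 0.12 for Tead1, higher than for 2.30%. The median over all units was 0.32. Array position and slide were each set against the values, with treatment in the model. Array position is a place on the slide and not a condition of the study.

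By position, the 10 genes did not share a sign. Amotl2 was higher at 2_4, with 5.09, 4.62 and 4.91 there and 4.61, 4.36 and 4.22 at 2_3, a difference of 0.58 ± 0.19 (SE) or 1.49-fold. Ankrd1 was lower at 2_4, with 2.96, 3.53 and 2.77 there and 3.73, 4.06 and 3.72 at 2_3, a difference of -0.75 ± 0.26 (SE) or 1.68-fold. In both genes the positions did not overlap, and neither passed the test (limma, adjusted p = 0.148 and 0.161). Ajuba, with 0.46 ± 0.19 (SE), overlapped between positions, since untreated replicate 1 at 2_3, with 1.69, lay above PNP replicate 1 at 2_4, with 1.52. For the other 7 genes the values ran from -0.36 for Yap1 to 0.32 for Arhgef17. The signs for Ankrd1, Amotl2 and Ajuba were the same under normexp background correction, quantile normalization and median centring, while that of Cyr61 (0.03) turned to -0.07 with normexp and -0.09 with quantile normalization.

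In counts, 0 of the 10 genes were called by position, against 2.64% of all units. At an unadjusted p under 0.05 there were 3 of the 10, against 20.6%. Positions did not overlap in 2 of the 10, against 22.4% of all units, so the share of these genes that separated was close to that of all. Without PNP replicate 1, Ankrd1 passed with -0.94 (limma, adjusted p = 0.0434), in a fit that called 4.98% of all units, 1069 of 21479. Leaving out PNP replicate 3 called 50 units, and leaving out any of the other 4 arrays called 0. Over the 6 fits that each left out 1 array its adjusted p in limma ran from 0.0434 to 0.780.

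Among the 14 probes, positions did not overlap for 6, against 22.9% of the 28208 probes. Of the 6, 5 were higher at 2_4: Amotl2, the other 2 probes of Lats2 and the other 2 of Tead1. Ankrd1 was the lower one. The Tead1 probe A_55_P2011390 read 1.36, 1.38 and 1.38 at 2_3 and 1.59, 1.60 and 1.62 at 2_4, with an SD within a position of 0.012 and 0.0137. Its position difference was 0.23 ± 0.17 (SE), which did not pass (limma, adjusted p = 0.482 over all probes). This SE is limma's moderated one, drawn towards the spread of all probes, and is far wider than the probe's own SDs. The brightest Tead1 probe had a position difference of -0.11. Among all probes that separated by position, 3334 were higher and 3138 lower at 2_4. The 6 probes belong to 4 genes, and probes of 1 gene are not independent.

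Slide 2 minus slides 1 and 3 was 1.48 ± 0.25 (SE) or 2.78-fold for Yap1, and both of its slide 2 arrays lay above the other 4. This contrast was added after the values were seen, and Yap1 did not pass it over all units (limma, adjusted p = 0.165). Leaving out each array in turn gave 1.36 to 1.60 (limma, adjusted p from 0.220 to 0.501). Under normexp, quantile normalization and median centring it was 1.28, 1.46 and 1.59. Cyr61 had the opposite sign, with 4.10 and 3.96 on slide 2 below its other 4 values, a difference of -0.39 ± 0.21 (SE). It was -0.18 without PNP replicate 1 and -0.61 without untreated replicate 3. Thus 2 of the 10 genes had a slide 2 that did not overlap with the rest, against 19.1% of all units, and by the adjusted test 0 of the 10 were called, against 0% of all. Slide 2 held 1 sample of each group, and the slide, its hybridisation and the cultures behind these samples cannot be told apart.

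**Figure D4:**
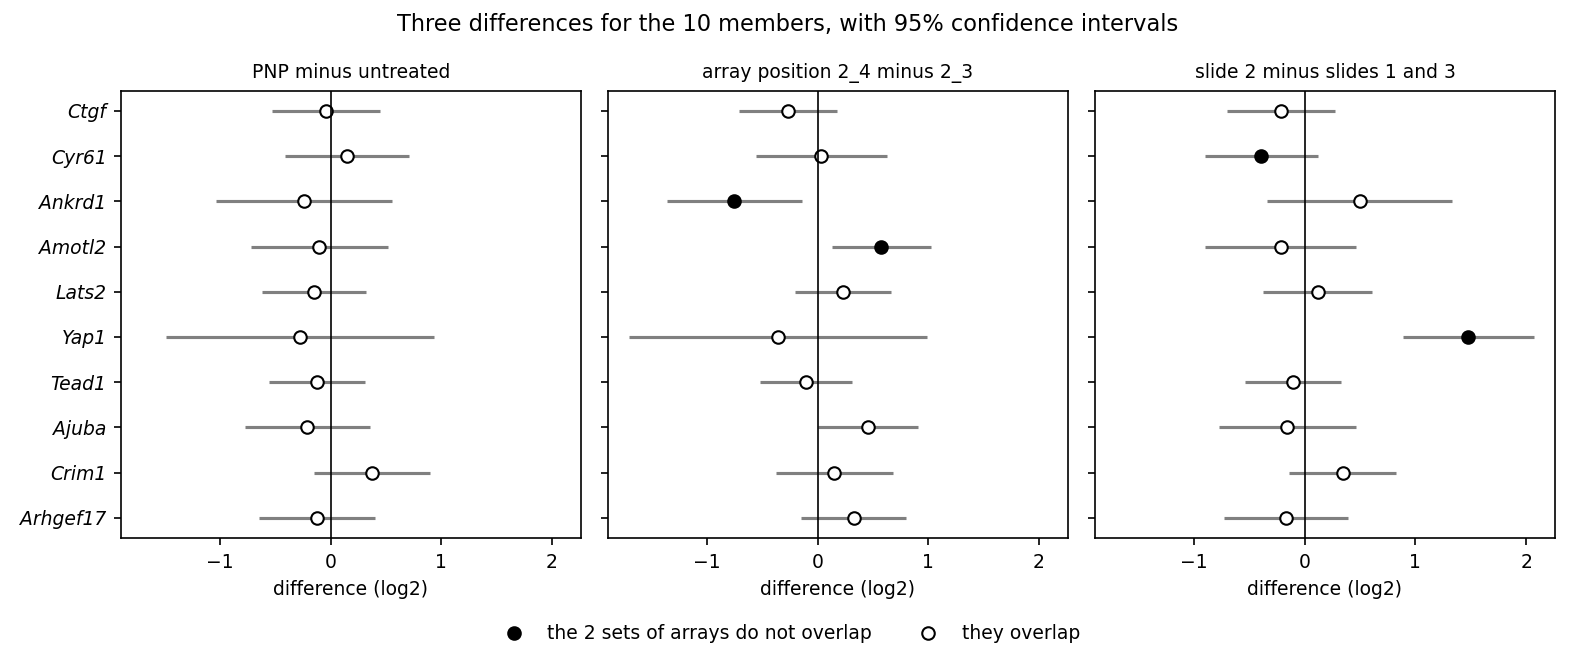
Differences in log2 units with 95% confidence intervals for the 10 genes: treated minus untreated (left), position 2_4 minus 2_3 (centre) and slide 2 minus slides 1 and 3 (right), the last 2 adjusted for treatment. Filled circles mark genes whose arrays do not overlap between the sets: none on the left, Ankrd1 and Amotl2 in the centre, Cyr61 and Yap1 on the right.

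Other genes of the pathway were read from 3 lists, each gene by its brightest probe. Some, among them Map4k4, Tead2, Tead4, Tgfb1i1 and Rbms3, had further tested probes, which are not given here. Of the 23 Hippo kinases and upstream regulators, which include Ajuba, Lats2 and Amotl2, all were tested and 0 were called, with 7 above and 16 below 0 and a median of -0.10. The lowest were Map4k4, an upstream kinase that can activate LATS, with -0.42 ± 0.19 (SE; limma, adjusted p = 0.526), and Amotl1, a relative of Amotl2, with -0.38 ± 0.20 (limma, adjusted p = 0.554). Map4k4 read 2.65, 2.46 and 2.33 without and 2.04, 2.02 and 2.12 with 4-nitrophenol, and Amotl1 read 0.35, 0.31 and -0.0049 against -0.24, -0.16 and -0.10. In both genes every treated sample lay below every untreated one. Wwc1, the scaffold KIBRA, had -0.29 ± 0.20 and overlapped. Lats1, the sister kinase of Lats2, had 0.05 ± 0.37 (SE).

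Of 10 TEAD factors and cofactors, Yap1 and Tead1 included, 9 were tested and 0 called, with 3 above and 6 below 0 and a median of -0.12. TAZ, encoded by Wwtr1, had -0.08 ± 0.24. The other TEAD factors had -0.39 ± 0.22 for Tead2, -0.33 ± 0.20 for Tead3 and -0.33 ± 0.22 for Tead4 (limma, adjusted p from 0.581 to 0.651). Tead3 read 0.99, 0.81 and 0.91 without and 0.38, 0.74 and 0.59 with the compound, without overlap. Tead2 and Tead4 overlapped. Vgll3, with 0.10 ± 0.19, and Vgll4, with 0.22 ± 0.20, did not overlap either, and in both every treated value lay above every untreated one.

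Of 25 other YAP and TAZ target genes, 23 were tested and 0 called, with 9 above and 14 below 0 and a median of -0.08. Tgfb1i1, a focal adhesion adaptor also known as Hic-5, had -0.56 ± 0.24 (SE; limma, adjusted p = 0.496). It was the 1 gene of the 3 lists at an unadjusted p under 0.05, a level that 9.94% of all units reached. It read 1.34, 0.83 and 1.37 without and 0.36, 0.87 and 0.65 with 4-nitrophenol, so that the groups overlapped by untreated replicate 2. F3, tissue factor, read 2.19, 1.93 and 2.22 against 2.33, 2.49 and 2.45, each treated value above each untreated one, a difference of 0.31 ± 0.20 (limma, adjusted p = 0.622). Rbms3, an RNA-binding protein, had 0.42 ± 0.32. Over the 49 tested genes of the lists that are not among the 10, 19 lay above and 30 below 0, and 7 had groups that did not overlap, 3 higher and 4 lower, where 15.4% of all units had such groups.

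**Figure D5:**
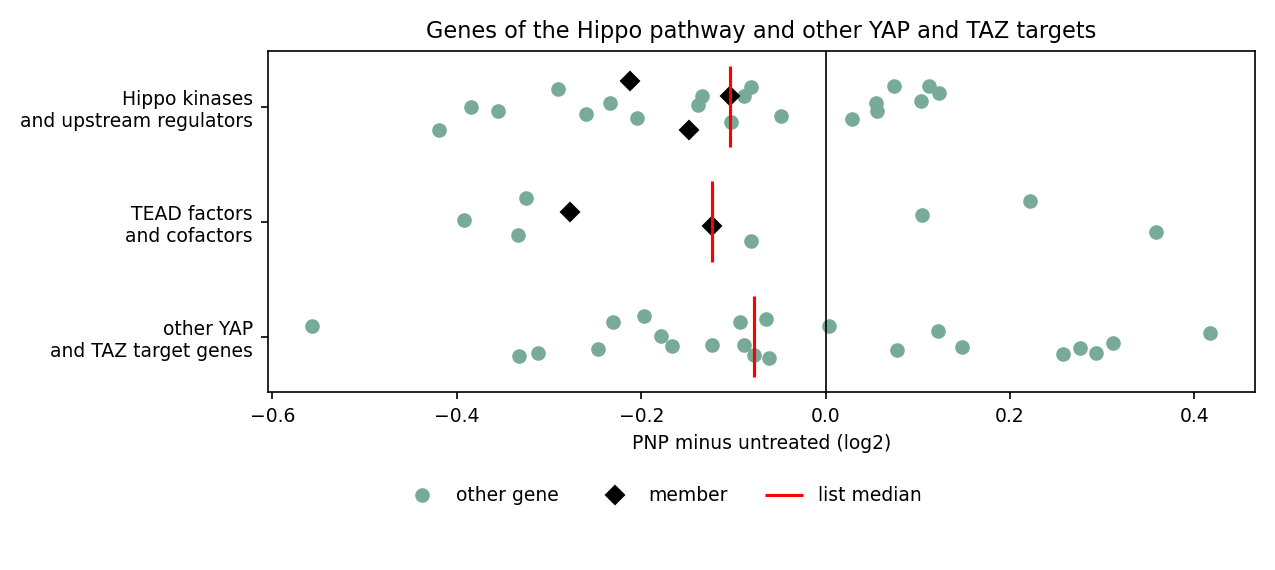
Difference between treated and untreated cells in log2 units for each tested gene of 3 lists. The lists are 23 Hippo kinases and upstream regulators, 9 TEAD factors and cofactors and 23 other YAP and TAZ target genes. Diamonds are Ajuba, Lats2, Amotl2, Yap1 and Tead1, which belong to the YAP and TEAD axis genes described first. Circles are all other genes, and red lines the list medians. The medians lie between -0.12 and -0.08, and no gene passed the test.

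The genes whose 6 values most resembled the mean of the 10, each centred on its own mean, were Bahd1 (Pearson's r 0.985), Hspa2 (0.981), Trp53bp2 (0.970), Rhou (0.963) and Nf2 (0.955), the last being merlin, an upstream activator of the Hippo kinases. They were picked as the highest of 12453 named genes over 6 arrays that share slides and positions, and 68 genes exceeded 0.9. With so many genes and so few arrays these values describe the samples and carry no test. The 10 genes did not share 1 profile: over their 45 pairs Pearson's r ran from -0.86 to 0.94, with a median of -0.07. Their values were not scaled before averaging, so Yap1, with the widest spread, weighed most in the mean. The mean of the 10 genes deviated from its average by between -0.14, on PNP replicate 2, and 0.10, on PNP replicate 1.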

How the data were processed

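RNA from 6 TM4 samples was hybridised after linear amplification and Cy3 labelling, per the labels' protocols. The deposited intensity values are background-subtracted processed signals. Per the file headers they come from Agilent Feature Extraction 11.5.1.1, while the submitters' processing notes give 10.7. The authors' deposited log2 table of the same arrays, whose normalization is not given in the sources used here, correlated across probes with the signal of its array at 0.998 or above, had a median of 4.74 in every column, and served as an alternative.

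Spots flagged as outliers and control spots were left out, the log2 signals of a probe's spots were averaged, and the 75th percentile of the array was taken off. A probe was tested where all 3 arrays of a group, either one, showed it well above background, as 28208 did. All 14 probes of the 10 genes passed, were well above background in 84 of 84 values, and had 1 spot per array with a scanner error of 10.0% to 10.5%. The brightest probe stood for its gene, which gave 21479 units (13538 named genes and 7941 unnamed transcripts). Accessions were matched to a RefSeq table of GRCm38.p6 for names, since the headers name mm9: 33767 probes matched a symbol, and 22838 had none here.

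The tests were two-sided moderated linear models in limma 3.58.1 (R 4.3.3), with Benjamini-Hochberg adjustment across the 21479 units and a threshold of 0.05. They were tested on simulated data with independent noise and no effect of position or slide, so that run does not cover such effects. Each SE and interval printed is limma's moderated one, in which the spread of a unit is drawn towards that of all units. Array position and slide 2 were fitted with treatment in the model. Precision is limited by the number of arrays. The 10 genes and the 9 lists (3 of the pathway, 6 of cell types) were chosen with earlier results of these data known. By rule the text names every one of the 10 genes with every probe, the 3 genes of each pathway list with the smallest p, Wwtr1, Lats1 and Tead2 to Tead4, and the 5 genes most like the mean profile. Other genes named were chosen after their values were seen. Alternatives were normexp (offset 50), median centring, quantile normalization, the percentile of the probes above background, no filter, a stricter filter, a robust trend, array weights, blocks for position, slide and replicate number, the authors' values, an adjusted p under 0.1, the mean over a gene's probes, values within a position and leaving out each array. The slide 2 contrast was added after the data were seen.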

Additional observations from a re-analysis of the deposited data

How the results depend on the processing

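Under the alternatives that give a test, 0 of the 10 genes passed in the comparison of treated with untreated cells. Over all units 0 passed except with array weights, which gave 1365 calls and weighted untreated replicate 1 by 9.11 and the others by 0.466 to 0.798. The replicate number as a block gave 0 calls over all units and 0 among the 10 genes. Deviations of same-numbered arrays correlated at -0.409, -0.553 and -0.406. Same-numbered arrays always lay at different positions, so these values cannot show whether the numbers pair the samples. Over all alternatives the median of the 10 genes ran from -0.23, with median centring, to 0.04, with slide as a fixed block. The median of all units was taken over the scalings alone. It ran from -0.15 with median centring to 0.03 with a percentile over probes above background.

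Each of the 10 genes changed sign under at least 1 alternative. Tead1 was 0.024 with normexp and 0.033 as a mean over probes, and Lats2 0.18 as a mean over probes. Ctgf was 0.037 with a percentile over probes above background, 0.051 with the position block and 0.11 within position 2_3, where Crim1 was -0.010. Ankrd1 was 0.0086 with the position block and 0.19 within position 2_4, where Yap1 was 0.59. With slide as a fixed block, which rests on slide 2 and sets untreated replicate 3 against PNP replicate 1, Cyr61 was -0.14, Amotl2 0.26, Lats2 0.20, Ajuba 0.18 and Arhgef17 0.36. Leaving out each replicate in turn gave -0.15 to 0.091 for Ctgf, -0.053 to 0.35 for Cyr61, -0.55 to 0.042 for Ankrd1, -0.27 to 0.10 for Amotl2 and -0.79 to 0.19 for Yap1, and 0 to 1 genes called by position, the 1 being Ankrd1 without PNP replicate 1, where 4.98% of all units were called. The cause was not tested.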

Other observations

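By array position, 9 of the 49 other pathway genes had an unadjusted p under 0.05, 6 higher and 3 lower at 2_4, and 0 passed. They were chosen after their values were seen. Gadd45b, a stress-induced sensor of growth arrest, had the largest difference and read 6.01, 5.52 and 5.85 at 2_4 against 5.22, 4.74 and 4.84 at 2_3, a difference of 0.93 (limma, adjusted p = 0.0697). Rbms3 had 0.78 (limma, adjusted p = 0.0821) and Tgfb2, a transforming growth factor beta ligand, 0.64 (limma, adjusted p = 0.140). Inhba, the activin beta A subunit, read 2.21, 2.18 and 2.00 at 2_4 against 2.95, 2.54 and 2.92 at 2_3, a difference of -0.68 (limma, adjusted p = 0.117). The share of 9 in 49 stands beside 20.6% of all units at that p.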
